A study of Nicotiana tabacum with 9 samples.

Results

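Membrane transporters and aquaporins are described here across 3 light intensities in leaves of cigar tobacco (Nicotiana tabacum), an allotetraploid crop. The genes were chosen by product name. All genes of the deposited expression table whose best Swiss-Prot match contained "transporter", "aquaporin", "exporter", "antiporter" or "permease" were taken, which gave 7 of the 123 genes in the table. Another 8 genes of the table had no Swiss-Prot product name and could not be matched. The plants were seedlings of the variety H382, grown at an intensity of 50, 100 or 200 µmol m-2 s-1, called light 50, light 100 and light 200 below. Each intensity had 3 biological replicates. Nothing but light intensity is given as differing between the groups. The labels do not say how long the plants stood under each light or whether leaves of several plants were pooled.

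Membranes let water and charged solutes through only where proteins carry them. Aquaporins are channels for water, and those of the PIP type sit in the plasma membrane, where some also pass hydrogen peroxide or carbon dioxide. The BASS family resembles animal bile acid carriers, and some of its plant members move metabolites such as pyruvate across the chloroplast envelope together with sodium. Sulfate transporters of group 3 carry sulfate, and in Arabidopsis members of this group have been placed in the chloroplast envelope. ABC transporters of the C family use ATP to pump conjugated compounds across membranes, some of them into the vacuole. The TauE/SafE family takes its name from bacterial sulfite exporters.

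The table is a selection whose rule the sources used here do not give, and 122 of its 123 genes passed the test between light 200 and light 50. Library totals lay between 12395758 and 16603534 reads. The 7 genes held between 189 and 6387 reads each per library. Light 200 replicate 3 differed more from replicates 1 and 2 of its group than these did from each other. Its chi-square per gene was 153.3 and 125.4 against replicates 1 and 2, which gave 23.5 against each other. Differences of a similar order, 96.3 to 106.2, stood between the light 50 libraries, and those of light 100 gave 35.8 to 81.8. Light 200 replicate 3 was the lowest of its group for 6 of the 7 genes in CPM and for 5 of 7 in FPKM. The reads are from bulk leaf, so more cells of a type and more RNA per cell cannot be told apart. The library kit does not mark strand, so reads of an overlapping antisense partner could be counted too, or reads in the overlap left uncounted. Reads of near-identical copies, of which the 2 parental genomes and the aquaporin family hold many, may have been split between them or left uncounted. The values of single genes are uncertain to that extent.

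The 2 aquaporins are short genes. Probable aquaporin PIP1-2 (Nitab4.5_0000737g0120) lies on Nt04, plus strand, 88688582 to 88690152, and its 858 bases of counted length are spread over 1571 bases. Aquaporin PIP2-1 (Nitab4.5_0000101g0120) lies on Nt02, plus strand, 3484610 to 3486224, with 876 bases of length in a span of 1615. The cotransporter named BASS1 (Nitab4.5_0000667g0060) is on the same chromosome, plus strand, 62111412 to 62115709. Its match to the Arabidopsis protein was the weakest of the 7, with an E-value of 8.9e-68. BASS3 (Nitab4.5_0000038g0160) is on Nt19, minus strand, 40721168 to 40725077. Sulfate transporter 3.1 (Nitab4.5_0000678g0050) is on Nt22, plus strand, 108255424 to 108262829, and sulfite exporter TauE/SafE family protein 3 (Nitab4.5_0000052g0160) on Nt23, minus strand, 55521965 to 55528251. ABC transporter C family member 14 (ABCC14, Nitab4.5_0002469g0080) is the longest, with 4521 bases in a span of 7968 on Nt19, minus strand, 65124994 to 65132961. The KEGG column names it as member 4 of the same family, so its exact identity is uncertain. Product names come from Arabidopsis thaliana proteins, except that of PIP1-2, which comes from rice. The genes lie apart from the rest of the table, the nearest neighbour on the table being 788246 bases from PIP2-1.

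The GO terms of the deposited table were not used in the choice by product name. They annotate the same genes and overlap in meaning with the names, so they are no separate evidence of where the proteins lie. All 7 carried the GO term "membrane", against 26 of the 123 genes of the table. The term "integral component of membrane" was given to 5 of the 7, against 10 of 123, and "transporter activity" to 4, against 5 of 123. BASS1, BASS3 and TauE/SafE family protein 3 lacked the term for transporter activity although their product names imply it.

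The comparison of light 200 with light 50 asks whether transport genes differ between the ends of the light range. All 7 genes were higher at light 200, by 1.49-fold to 2.79-fold, with a median log2 change of 0.89. PIP1-2 had the largest rise and TauE/SafE family protein 3 the smallest. All 7 passed edgeR's quasi-likelihood test upward (Benjamini-Hochberg adjusted p from 2.61e-05 to 0.00317, adjusted over the 123 genes) and 0 downward, where an unadjusted p under 0.05 and DESeq2 also gave 0. Of all genes in the table, 47.2% were called higher and 52.0% lower, with a median log2 change of -0.58. Since nearly every gene in the table was called in this comparison, the calls say nothing particular about these 7 genes, and only the direction was free. In all 7 genes every light 200 library lay above every light 50 library, which held upward for 47.2% of the table. Without light 200 replicate 3 the log2 changes lay between 0.68 and 1.59, and all 7 were called. The authors' deposited table gives an adjusted p under 0.05 for the same 7 genes in this comparison.

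**Figure D1:**
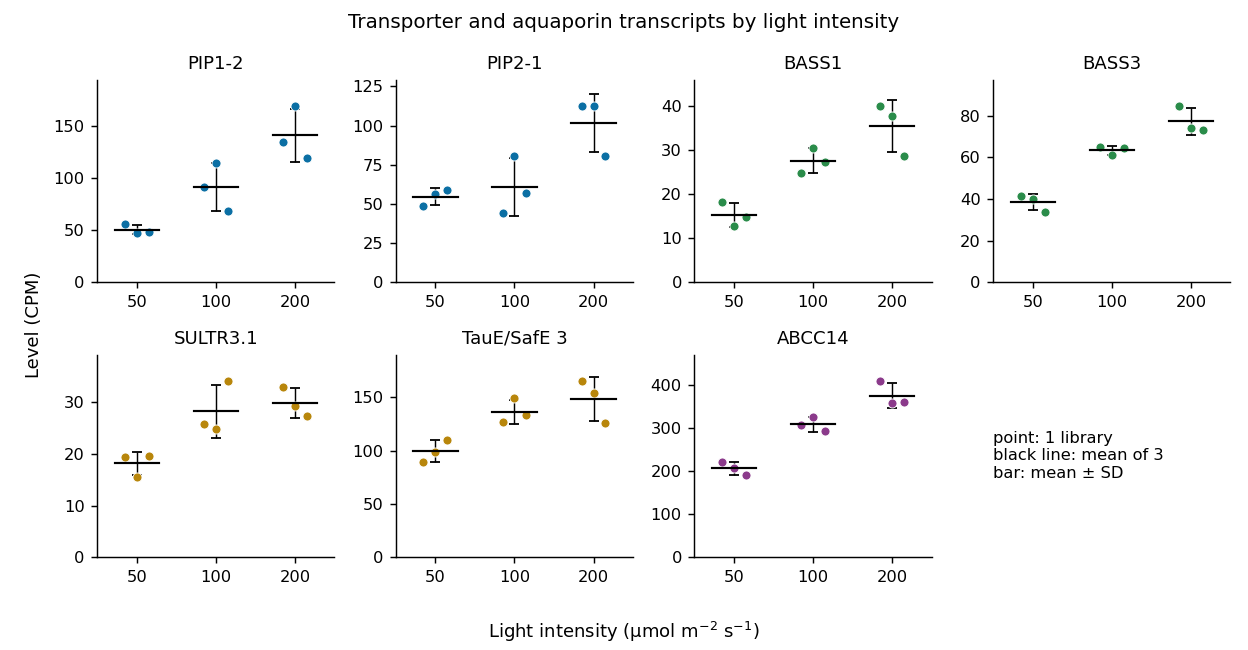
Level of each gene in CPM (counts scaled with the authors' size factors to a common library size) against light intensity in µmol m-2 s-1. Each point is 1 library, the black line the mean of 3 and the bar the SD. The light 200 points lie above the light 50 points in all 7 panels, while for PIP2-1 the light 100 points spread over 44.5 to 80.8 CPM, across the light 50 range.

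Of the 2 aquaporins, PIP1-2 was called higher in both doublings of light and PIP2-1 in the second. The light 50 libraries of PIP1-2, a channel of the group that often pairs with PIP2 proteins, had 55.5, 47.3 and 48.3 CPM. Its light 100 libraries had 91.6, 114.7 and 68.7 CPM and its light 200 libraries 134.2, 168.6 and 119.4 CPM. The 3 groups did not overlap, and the order of the means followed the light intensity. The log2 change was 1.48 ± 0.20 (SE; adjusted p = 2.61e-05, edgeR) for light 200 over light 50, 0.86 ± 0.20 (adjusted p = 0.00318) for light 100 over light 50 and 0.62 ± 0.20 (adjusted p = 0.0225) for light 200 over light 100. The last call was lost when light 100 replicate 3 was left out (0.45, adjusted p = 0.0914). It was also lost when light 200 replicate 2 was (0.47, with an adjusted p of 0.0831). Over all alternatives that adjusted p lay between 0.00344 and 0.0914.

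PIP2-1, a water channel whose Arabidopsis namesake is abundant in leaf and root plasma membranes, had light 50 libraries of 48.7, 56.4 and 59.1 CPM. Those of light 100 had 44.5, 80.8 and 57.1 CPM, and those of light 200 had 112.4, 112.3 and 80.6 CPM. Light 100 overlapped with both other groups, its replicate 2 being level with light 200 replicate 3 and its replicate 3 lying within the light 50 range. The log2 change of light 100 over light 50 was 0.15, with a 95% interval from -0.31 to 0.62 (adjusted p = 0.499), and it was -0.11 without light 100 replicate 2. Light 200 over light 100 gave 0.74 ± 0.21 (SE; adjusted p = 0.0135). Without light 100 replicate 3 this was 0.70 with an adjusted p of 0.0558, the highest of any alternative, the lowest being 0.00239. Over the whole range PIP2-1 rose 1.86-fold (adjusted p = 0.00146). Its coefficient of variation at light 100, 30.3%, was the largest of any of the 7 genes at any intensity.

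The proportion of the 2 aquaporins within a library does not depend on how libraries are scaled. The ratio of PIP1-2 to PIP2-1 in FPKM was 1.16, 0.856 and 0.835 in the light 50 libraries, 2.10, 1.45 and 1.23 in those of light 100, and 1.22, 1.53 and 1.51 in those of light 200. Every library at light 100 and light 200 lay above every library at light 50. An exact two-sided permutation test on the log2 ratio gave p = 0.10 for light 200 against light 50 and for light 100 against light 50, the smallest p that 3 against 3 libraries allow, and both became 0.45 when adjusted over the 9 comparisons of ratios made. For light 200 against light 100 the exact permutation test gave p = 0.80. The test was chosen after the data were seen.

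The 2 BASS cotransporters both rose from light 50 to light 200, as did the other transport genes chosen by product name. BASS1 libraries of light 50 had 18.2, 12.7 and 14.8 CPM, those of light 100 had 24.8, 30.5 and 27.4 CPM, and those of light 200 had 39.9, 37.6 and 28.6 CPM. Its light 100 and light 200 groups overlapped, through light 200 replicate 3. BASS3 libraries had 41.5, 40.1 and 34.0 CPM under light 50, 64.9, 61.0 and 64.3 CPM under light 100, and 84.5, 74.1 and 73.1 CPM under light 200, with no overlap between any 2 groups. Between light 200 and light 50 BASS1 rose 2.32-fold (log2 change 1.22 ± 0.19, SE; adjusted p = 6.7e-05, edgeR) and BASS3 2.01-fold (adjusted p = 2.98e-05). In the first doubling of light the log2 change was 0.86 for BASS1 (adjusted p = 0.00264) and 0.72 for BASS3 (adjusted p = 0.00103). For light 200 over light 100 they were 0.36 for BASS1, with a 95% interval from -0.04 to 0.76, and 0.28 for BASS3, with one from -0.01 to 0.58, and neither was called (adjusted p = 0.0981 and 0.0816). Without light 200 replicate 3 BASS1 was called there (0.49, adjusted p = 0.0419, between 0.0125 and 0.546 over all alternatives). Both genes were also called there with all 9 libraries when these were scaled by library totals, TMM or RLE. The adjusted p of BASS1 was then 0.0355, 0.014 and 0.0125, and that of BASS3 was 0.0237, 0.0121 and 0.00735. Over all alternatives that of BASS3 lay between 0.00735 and 0.817.

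BASS3 was the more abundant of the pair in every library. Its FPKM was 2.01, 2.78 and 2.03 times that of BASS1 in the light 50 libraries, 2.31, 1.77 and 2.07 times in those of light 100, and 1.87, 1.74 and 2.25 times in those of light 200. The groups overlapped, and the exact permutation test gave p = 0.40 for light 200 against light 50, p = 0.70 for light 100 against light 50 and p = 0.70 for light 200 against light 100 (0.90 each after adjustment).

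The 2 genes with sulfur-related names had the smallest rises of the 7 for light 200 over light 50. Sulfate transporter 3.1 libraries had 19.4, 15.6 and 19.6 CPM under light 50, 25.8, 24.8 and 34.1 CPM under light 100, and 33.0, 29.4 and 27.3 CPM under light 200. TauE/SafE family protein 3 libraries had 89.6, 98.7 and 110.4 CPM under light 50, 126.6, 149 and 133.8 CPM under light 100, and 165.2, 154.4 and 125.7 CPM under light 200. In both genes light 50 lay below the other 2 groups, which overlapped each other. Within libraries, the ratio of TauE/SafE family protein 3 to sulfate transporter 3.1 in FPKM lay between 5.04 and 8.15, the groups overlapped, and the exact permutation test gave p = 0.40 for light 200 against light 50 (0.90 after adjustment).

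For light 200 over light 50 the log2 change of sulfate transporter 3.1 was 0.72 ± 0.18 (SE; adjusted p = 0.00174, edgeR) and that of TauE/SafE family protein 3 was 0.58 ± 0.16 (adjusted p = 0.00317). For light 100 over light 50 they were 0.64 (adjusted p = 0.00804) and 0.45 (adjusted p = 0.0199). The call of TauE/SafE family protein 3 in the first doubling was lost in 3 of the fits that leave out a library. The log2 change was 0.38 (adjusted p of 0.0574) without light 50 replicate 1, 0.45 (0.0513) without light 50 replicate 2 and 0.39 (0.0671) without light 100 replicate 2. Over all alternatives its adjusted p lay between 0.000804 and 0.276. Light 200 over light 100 gave 0.08 for sulfate transporter 3.1, with a 95% interval from -0.30 to 0.46, and 0.12 for TauE/SafE family protein 3, with one from -0.22 to 0.46. Neither was called (adjusted p = 0.68 and 0.498). The value of the sulfate transporter was -0.0033 without light 100 replicate 2.

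ABCC14, the longest of the genes, had the most reads. Its libraries had 221.6, 206.8 and 190.6 CPM under light 50, 306.6, 327 and 293.3 CPM under light 100, and 409.4, 357.4 and 360.4 CPM under light 200. The 3 groups did not overlap, and no group had a coefficient of variation above 7.77%. The log2 change was 0.86 ± 0.13 (SE; adjusted p = 6.7e-05, edgeR) for light 200 over light 50 and 0.58 ± 0.13 (adjusted p = 0.00318) for light 100 over light 50. For light 200 over light 100 it was 0.28, with a 95% interval from -0.01 to 0.57, and was not called (adjusted p = 0.0777) although the libraries were apart. This depended on the scaling of the libraries. The gene was called there with library totals (0.37, adjusted p = 0.0177), TMM (0.43, adjusted p = 0.00684) and RLE (0.51, adjusted p = 0.00464). Over all alternatives the adjusted p lay between 0.00464 and 0.763.

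In the first doubling, light 100 over light 50, 6 of the 7 genes were called higher and 0 lower, PIP2-1 being the exception, with a median log2 change of 0.64. Of all genes in the table, 42.3% were called higher and 40.7% lower, with a median of -0.18. No gene of the 7 was lower even at an unadjusted p under 0.05 or by DESeq2. The light 100 libraries lay above all light 50 libraries in 6 of the 7 genes and in 39.8% of the table. The authors' deposited table, adjusted over more genes than are in it, gives an adjusted p under 0.05 for 3 of the 7 (BASS1, BASS3 and ABCC14).

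In the second doubling, light 200 over light 100, the 2 aquaporins were called higher and the other 5 genes were not, and 0 were lower, by the unadjusted p and DESeq2 as well. The median log2 change was 0.28, and all 7 values were above 0. Of all genes in the table, 21.1% were called higher and 39.0% lower, with a median of -0.20. The groups were apart in 3 of the 7 genes (PIP1-2, BASS3 and ABCC14) and in 29.3% of the table. The count of 2 became 0 without light 100 replicate 3, 1 without light 200 replicate 2 and 3 without light 200 replicate 3. It was 5 with library totals, TMM or RLE as scaling, where BASS1, BASS3 and ABCC14 were called beside the aquaporins. The authors' deposited table gives 0 of the 7 an adjusted p under 0.05.

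**Figure D2:**
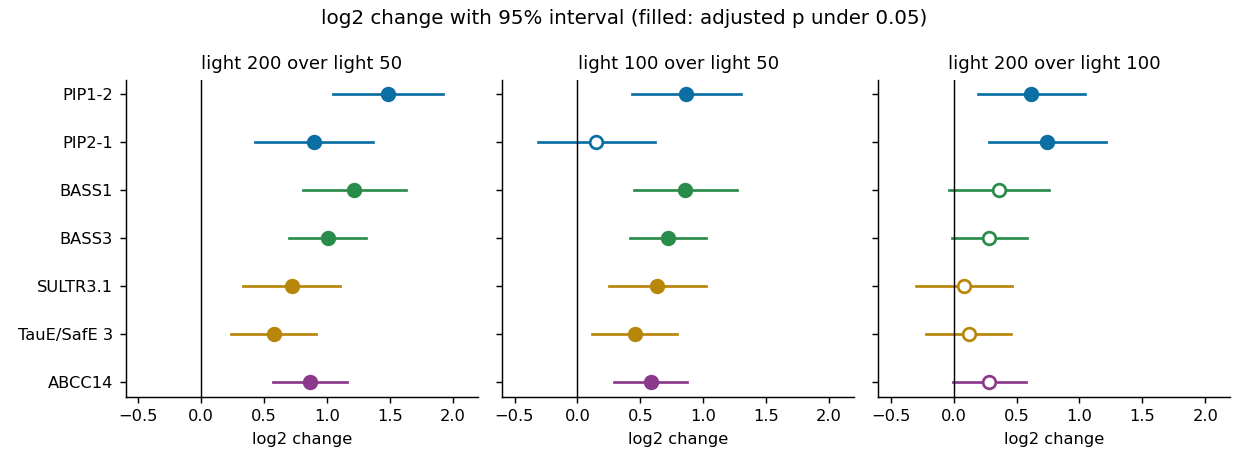
log2 change of each gene in edgeR (points) with its 95% interval (lines), for light 200 over light 50, light 100 over light 50 and light 200 over light 100. Filled points passed an adjusted p of 0.05. PIP2-1 is the open point in the middle panel, at 0.15, and the aquaporins are the 2 filled points in the right panel, at 0.62 and 0.74.

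Both doublings share the light 100 libraries, so their values are set side by side and the difference between them was tested in the model. The step difference, the log2 change of the second doubling minus that of the first, was 0.59 for PIP2-1, with a 95% interval from -0.22 to 1.41, and negative for the other 6 genes. It was -0.55 for sulfate transporter 3.1 (95% interval -1.21 to 0.10), -0.50 for BASS1 (-1.19 to 0.20), -0.43 for BASS3 (-0.95 to 0.08), -0.33 for TauE/SafE family protein 3 (-0.91 to 0.25), -0.30 for ABCC14 (-0.80 to 0.20) and -0.25 for PIP1-2 (-0.98 to 0.49). None of the 7 was called by edgeR (adjusted p from 0.416 to 0.791), 0 had an unadjusted p under 0.05 and DESeq2 called 0, against 2.44% of the table. With TMM scaling 4 of the 7 had an unadjusted p under 0.05 and 0 were called, while 23 genes of the table were called, against 3 with the authors' factors. These intervals contain 0 for every gene, and they also contain differences as large as the change in either doubling. The sign for PIP1-2 turned to 0.14 without light 100 replicate 2. As a share of the log2 change over the whole range, the first doubling made up 88.6% for sulfate transporter 3.1, 78.9% for TauE/SafE family protein 3, 71.6% for BASS3, 70.4% for BASS1, 67.4% for ABCC14, 58.3% for PIP1-2 and 16.8% for PIP2-1. With median centring, under which the change over the whole range was not called for these 3 genes, the share was 175% for sulfate transporter 3.1, 281% for TauE/SafE family protein 3 and -37.6% for PIP2-1. That of PIP2-1 was also 32.6% with TMM, 9.0% without light 50 replicate 1, 37.1% without light 100 replicate 1 and -12.0% without light 100 replicate 2. Every other share stayed within 1.5 times its value under the alternatives tried.

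The 7 rises lay in the middle and lower part of the 58 rises in the table. Ordered by log2 change for light 200 over light 50, PIP1-2 was 20th of 123, BASS1 31st, BASS3 35th, PIP2-1 40th, ABCC14 44th and sulfate transporter 3.1 49th. TauE/SafE family protein 3 was 58th, the smallest change among the 58 genes called higher. The median of the 7 was 0.89, against 1.33 for the other 51 genes called higher.

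**Figure D3:**
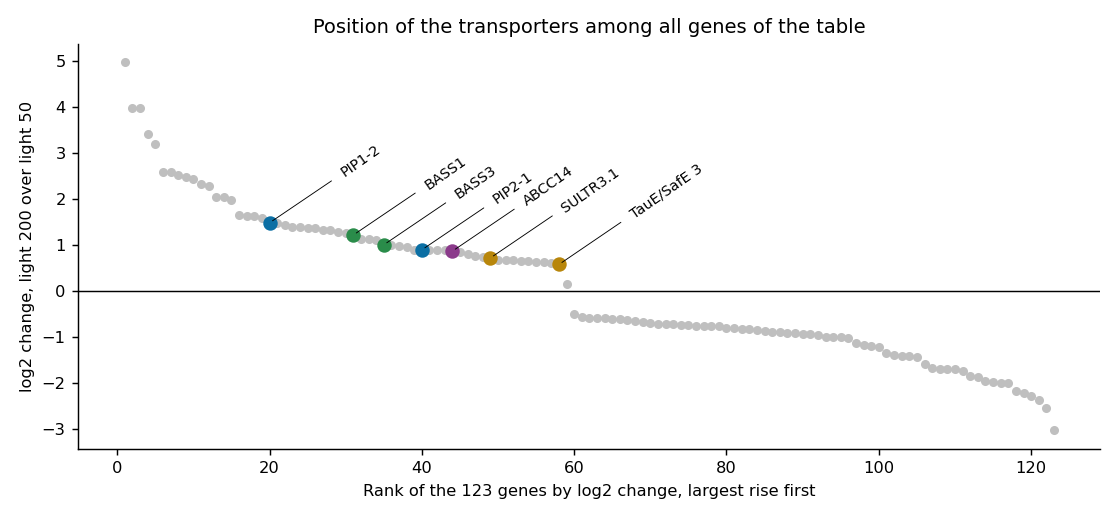
All 123 genes ordered by log2 change, light 200 over light 50, largest rise first. Coloured points are the transporters and aquaporins, at ranks 20 to 58, all on the rising side. Few genes lie near 0 in this table, of which 122 genes were called.

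Levels per length were compared with the authors' FPKM values. At light 50 the order was TauE/SafE family protein 3 (65.3 ± 8.6 FPKM, SD, n = 3), PIP2-1 (59.5 ± 7.6), PIP1-2 (55.7 ± 3.2), ABCC14 (43.3 ± 2.2), BASS3 (26.5 ± 2.3), BASS1 (11.9 ± 1.8) and sulfate transporter 3.1 (9.25 ± 1.09). The first 3 overlapped with their neighbours, as did the last 2. At light 100 PIP1-2 (106.4 ± 26.3 FPKM), TauE/SafE family protein 3 (93.6 ± 6.9), PIP2-1 (69.0 ± 20.3) and ABCC14 (68.1 ± 3.5) each overlapped with the next. At light 200 PIP1-2 stood first, with 172.8 ± 27.8 FPKM and no overlap with PIP2-1 (122.3 ± 19.0), which overlapped with TauE/SafE family protein 3 (107.7 ± 12.1). Below them followed ABCC14 (87.7 ± 6.0), BASS3 (59.1 ± 4.1), BASS1 (30.6 ± 4.4) and sulfate transporter 3.1 (16.9 ± 1.3), each apart from the next. Together the 7 genes took 0.0459% ± 0.0005 of all reads at light 50, 0.0714% ± 0.0056 at light 100 and 0.0959% ± 0.0064 at light 200 (SD, n = 3), while the share of the whole table was 7.05% ± 0.40, 6.13% ± 0.25 and 5.09% ± 0.40.

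Among themselves, BASS3 and ABCC14 had the most similar profiles. Likeness was taken as the root mean square difference of log2 CPM over the 9 libraries after centring each gene, which describes shared light groups and libraries alike and was not tested. It was 0.0928 for that pair. The least alike pair was sulfate transporter 3.1 and PIP1-2, at 0.452, and the 2 aquaporins stood 0.396 apart. Outside the 7, the gene most like BASS3 was the chloroplastic beta-glucosidase-like SFR2 (Nitab4.5_0003135g0010, 0.102), followed by alcohol dehydrogenase 1 (Nitab4.5_0000270g0270, 0.127). For ABCC14 these were phosphoglucan phosphatase LSF1 (Nitab4.5_0004348g0040, 0.092) and transcription factor UNE12 (Nitab4.5_0000187g0130, 0.11). For TauE/SafE family protein 3 they were a putative G3BP-like protein (Nitab4.5_0000355g0030, 0.0894) and 3-hydroxyisobutyryl-CoA hydrolase-like protein 5 (Nitab4.5_0001232g0070, 0.104), which were also the nearest to sulfate transporter 3.1, at 0.172 and 0.17. BASS1 was nearest to flavone 3'-O-methyltransferase 1 (Nitab4.5_0000725g0060, 0.141) and UDP-glycosyltransferase 74E2 (Nitab4.5_0002356g0020, 0.152), and PIP1-2 to beta-glucosidase BoGH3B (Nitab4.5_0001505g0020, 0.173) and the same methyltransferase (0.189). The genes nearest to PIP2-1 were an AFG1-like ATPase (Nitab4.5_0000109g0260) at 0.265 and the hydrolase-like protein 5 at 0.288.

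A wider list of transport-related product names (channels, carriers, pumps, ATPases and the like) matched 2 further genes of the table, 1 of which rose and 1 fell at light 200. CSC1-like protein ERD4 (Nitab4.5_0000315g0120), of a family that includes calcium-permeable channels opened by osmotic stress in Arabidopsis, had 21.2, 24.6 and 57.0 CPM at light 200, against 174.7, 229.6 and 131 CPM at light 50, without overlap. Its log2 change was -2.38 ± 0.39 (SE; adjusted p = 0.000104, edgeR). The AFG1-like ATPase, matched only by the word ATPase in its name, had 45.9, 45.5 and 49.7 CPM at light 200, against 25.2, 22.7 and 28.5 CPM at light 50, a log2 change of 0.89 ± 0.16 (adjusted p = 0.000183).

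Genes listed as possible markers of cell types also differed between light 200 and light 50. In this comparison 47.2% of the table was called higher and 52.0% lower, so a listed gene found in it could hardly stay level. These values therefore cannot show a shift in the cell make-up of the leaf. The table held 17 genes of the leaf mesophyll list (antenna, photosystem and Rubisco names), whose summed level was 22460 to 28200 CPM at light 200, against 42860 to 51680 CPM at light 50. The dividing tissue list had 1 gene, a beta-tubulin, at 28.6 to 38.2 CPM at light 200, against 79.1 to 126.7 CPM at light 50. The glandular trichome list had 1, a non-specific lipid-transfer protein, at 13.5 to 17.7 CPM at light 200, against 40.8 to 65.9 CPM at light 50. The root and nicotine list had 1, berberine bridge enzyme-like 8, at 3.98 to 7.50 CPM at light 200, against 0.606 to 1.32 CPM at light 50. The vascular list had 0 genes in the table. Whether these differences have a part in the rises of the transporters was not tested.

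The rises over the whole light range kept their direction under each scaling tried, and their size depended on it. Relative to the authors' size factors, the library sizes alone moved log2 changes of light 200 over light 50 by 0.15 with library totals, 0.29 with RLE, 0.43 with TMM and -0.50 with median centring of the table. The median of the 7 genes was 1.04, 1.18, 1.31 and 0.37 under these scalings. The shifts lay between -0.27 and 0.29 for light 100 over light 50 and between -0.24 and 0.22 for light 200 over light 100. All 7 were called higher with the first 3 of these scalings and 4 with median centring, where PIP2-1 (0.37, adjusted p = 0.0838), sulfate transporter 3.1 (0.22, adjusted p = 0.306) and TauE/SafE family protein 3 (0.06, adjusted p = 0.677) were not called. Over all alternatives the lowest adjusted p of these 3 was 0.000103, 5.79e-05 and 5.16e-05. In the first doubling median centring left 3 of the 7 called higher and turned PIP2-1 to -0.14. In the second it left 1 called higher, PIP2-1, and turned sulfate transporter 3.1 to -0.17 and TauE/SafE family protein 3 to -0.12. RLE, TMM and median centring were computed from the chosen genes of the table itself, and so take chosen genes as unchanged. Median centring used the median read count of each library. With it the median log2 change of the whole table, light 200 over light 50, was -1.08, against -0.58 with the authors' factors.

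**Figure D4:**
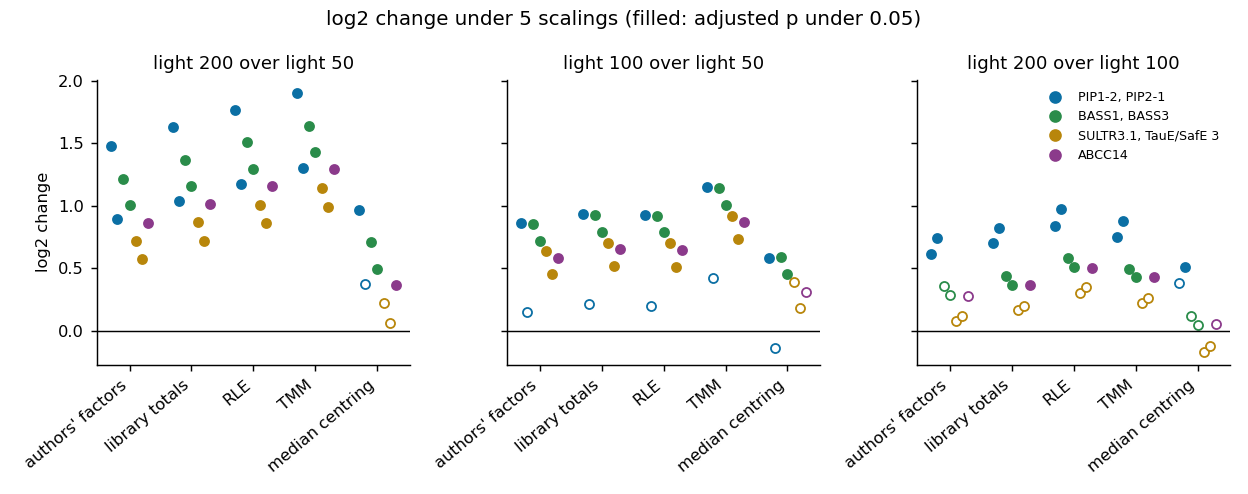
log2 change of each gene under 5 scalings of the libraries, in the 3 comparisons. Filled points passed an adjusted p of 0.05, and colours mark the pairs of genes. In the left panel all points are above 0, from 0.06 with median centring to 1.91 with TMM, and in the right panel the number of filled points is 2 with the authors' factors and 5 with library totals, RLE or TMM.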

How the data were processed

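RNA sequencing of 9 leaf libraries was analysed, 3 per light intensity. Per the submitters' processing notes, CASAVA 1.7, HISAT and HTSeq were used. No genome build was named in these notes or headers, so coordinates are printed as in the table. Per the file headers, the deposited table holds raw read counts per gene. FPKM values in it are the authors' own, per the file headers. It also holds the authors' mean normalised counts, log2 fold changes (lower over higher light) and p-values per pair of groups, per the file headers.

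Count divided by FPKM and gene length gave each library total, with a largest relative deviation of 1.0e-09. Size factors of the authors were recovered from their mean normalised counts (largest relative error 5.0e-10) and combined into 1 set of 9 (largest difference 0.19%) that served as effective library sizes for CPM. Counts of all 123 genes were fitted with edgeR 4.0.16 in R 4.3.3 (filterByExpr, glmQLFit, glmQLFTest, two-sided, group as the only factor, all 9 libraries), with Benjamini-Hochberg adjustment over the table at 0.05. The edgeR code was tested on simulated data. Ratios within libraries were tested with scipy 1.17.1. Alternatives were DESeq2 1.42.0, 4 other scalings, 2 other filters on low counts, a fit on the compared groups only, a replicate block and each library left out. The ratio tests were added after the data were seen.

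The 7 genes and all lists were chosen with earlier results of these data known, so no count of calls is independent of those results. All 7 genes were named. Beside them were named the 2 genes most alike to each and the genes of the wider transport list. The reference gene table matched 0 identifiers. Replicates differed by more than sampling noise (chi-square per gene at least 23.5), and each was kept as a sample of its own. All p-values weigh differences between light groups against the spread between these libraries. In edgeR the spread of a gene is estimated in part from the other genes of the table. Standard errors and intervals were derived from its log2 change and F statistic.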

Additional observations from a re-analysis of the deposited data

How the results depend on the processing

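Direction held in every alternative for light 200 over light 50 in all 7 genes, and the count called higher was 7 except with median centring, where it was 4. For light 100 over light 50 it was 3 with median centring and 5 or 6 without single libraries. For light 200 over light 100 it was 5 with library totals, TMM or RLE, 1 with median centring, and 0 to 3 without single libraries. These counts were 7, 6 and 2 with the replicate block, with DESeq2, without a filter on low counts, with a minimum mean of 5 CPM and with only the groups compared in the fit. Signs turned with median centring for PIP2-1 (-0.14, light 100 over light 50) and, for light 200 over light 100, for sulfate transporter 3.1 (-0.17), TauE/SafE family protein 3 (-0.12), SFR2 (-0.14) and the G3BP-like protein (-0.10). Relative to the authors' size factors, the library sizes of median centring alone moved log2 changes by -0.27 for light 100 over light 50. For light 200 over light 100 they moved them by -0.24. The part of these shifts in the turns was not tested. Without single libraries PIP2-1 ranged from -0.11 to 0.33 in the first doubling, sulfate transporter 3.1 from -0.0033 to 0.24 in the second, and the step difference of PIP1-2 from -0.59 to 0.14; the cause was not tested.

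Replicate numbers did not pair the libraries. Deviations of same-numbered libraries correlated between -0.443 and 0.55 over 9 pairs, and the best match was the own number in 6 of 18 cases. With the replicate block the table had 53 genes higher and 40 lower for light 100 over light 50, against 52 and 50 without it, and 6 step differences, against 3. Step differences called in the table numbered 23 with TMM, 9 with DESeq2, 5 with library totals, 4 with median centring and 2 with RLE, and 1 to 14 without single libraries (1 without light 100 replicate 2 or light 200 replicate 2, 14 without light 50 replicate 1). BASS1 and sulfate transporter 3.1 had the fewest reads, 189 to 622 per library, while the largest standard errors for light 200 over light 50 were those of the aquaporins.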
